A study of Mus musculus with 24 samples.

Results

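The 10 genes described here encode enzymes that remove peroxides and superoxide in oocytes and early embryos, with the regulator of many such genes: Prdx1, Prdx2, Prdx3, Prdx4, Prdx6, Txn1, Sod1, Sod2, Gpx4 and Nfe2l2. They were chosen by name as a pathway list, and all 10 were found by symbol among the 55487 genes in the files. RNA sequencing was used to compare wild-type and Nlrp14 knockout mice, in a study whose title concerns female infertility and early embryo arrest. The wild type (WT) and the Nlrp14 knockout (KO, titled HO in the labels) were each sampled at 4 stages: immature oocytes with an intact germinal vesicle (GV), mature oocytes arrested at metaphase II (MII), zygotes (PN5) and 2-cell embryos (2cell). Each of the 8 groups had 3 biological replicates of 5 oocytes or embryos, which makes 24 libraries. Strain, age, hormone treatment, the deleted part of Nlrp14, the number of founders and the genotype of the sire are absent from the labels.

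Peroxiredoxins reduce hydrogen peroxide through a reactive cysteine, and most of them are returned to the reduced state by thioredoxin. Superoxide dismutases turn superoxide into hydrogen peroxide, and glutathione peroxidases remove peroxides with glutathione as the electron donor. NRF2, the product of Nfe2l2, is a transcription factor held at low levels by KEAP1 and binds the antioxidant response element of many genes for these enzymes. Growing oocytes store messenger RNA, much of which is degraded during meiotic maturation and early cleavage, and mouse embryos begin major transcription at the 2-cell stage.

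Reference sequences of 2 members and their copies show how far copies limit the levels of these genes. Several processed pseudogenes differ from a member at only a few bases, so that a sequenced fragment can match either. Each pair below gives 120 bases of the coding sequence of the member and of its most abundant copy (GENCODE M21, GRCm38, 5′ to 3′, sense strand), with the bases that differ in capitals, at the place where differences are densest.
Prdx1: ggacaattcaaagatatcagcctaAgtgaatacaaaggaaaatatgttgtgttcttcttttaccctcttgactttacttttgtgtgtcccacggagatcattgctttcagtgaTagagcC
Gm21399: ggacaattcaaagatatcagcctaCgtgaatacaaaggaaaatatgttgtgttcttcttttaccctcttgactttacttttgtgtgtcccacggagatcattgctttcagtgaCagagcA
Gpx4: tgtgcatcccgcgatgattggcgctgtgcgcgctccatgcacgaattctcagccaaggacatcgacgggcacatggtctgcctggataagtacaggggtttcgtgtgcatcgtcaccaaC
Gpx4-ps2: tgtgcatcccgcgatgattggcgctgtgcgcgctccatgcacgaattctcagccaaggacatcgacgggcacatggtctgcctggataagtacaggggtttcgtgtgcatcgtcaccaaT
The Prdx1 stretch covers coding positions 70 to 189, and that of Gpx4 positions 85 to 204, counted from 1 at the A of the start codon. Over the aligned coding sequence, Prdx1 and Gm21399 (chromosome 8, 129252998 to 129253594) differed at 10 of 597 positions. Gpx4 and Gpx4-ps2 (chromosome 10, 45875291 to 45876086) differed at 2 of 552 positions, and their longest identical run was 314 bases. Prdx2 and Tdpx-ps1 (chromosome 1, 99790429 to 99791025) differed at 22 of 594, and Sod1 and Gm8566 (chromosome 6, 67205619 to 67206083) at 10 of 462.

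The deposited values followed each other closely within these pairs. Over the 24 libraries, Pearson's r between member and copy on log2(FPKM + 1) was 0.997 for Prdx1, 0.992 for Prdx2, 0.988 for Sod1 and 0.992 for Gpx4, as a description of libraries that share stages and depth. Gpx4-ps2 stood at 4.72 to 12.7 times the FPKM of Gpx4 in every library. Copies made up 82.5 to 92.8% of the summed FPKM of Gpx4 and its copies, 49.3 to 69.8% for Sod1, 38.5 to 54.5% for Prdx2, 44.3 to 48.9% for Prdx1 and 0 to 9.88% for Txn1. The levels of Prdx1, Prdx2, Sod1 and Gpx4 are therefore uncertain, since it is not known how the authors' counting divided fragments between copies. Prdx3, Prdx4, Prdx6 and Nfe2l2 had no copy of at least 95% identity over 300 bases, and no such copy of Sod2 reached 1 FPKM. Where a result below concerns a gene with copies, the test was repeated on the FPKM of the gene and its copies added together.

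**Figure D1:**
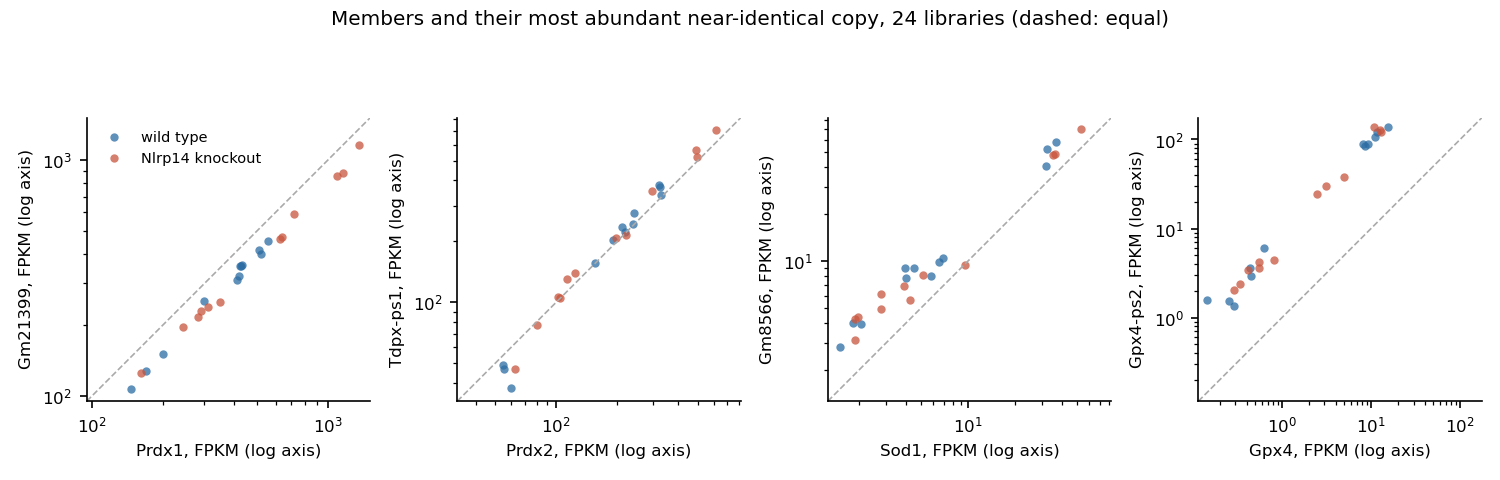
FPKM of 4 members (horizontal log axis) against the FPKM of their most abundant near-identical copy (vertical log axis), with 1 point per library (24 libraries, WT blue, KO red) and a dashed line of equal values. Points of both genotypes lie along 1 band in each panel, and all Gpx4 points lie above the line, between 4.72 and 12.7 times.

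Promoter sequences are shown for 4 genes that parted at the 2-cell stage: Prdx4 and Nfe2l2, which were lower in KO embryos, and Prdx1 and Prdx2, which were higher. Each is the stretch from 250 to 61 bases before the RefSeq start site (GRCm38.p6, 5′ to 3′ on the strand of the gene), with any match to the antioxidant response element core in capitals. The bases nearer the start are not shown, because other annotated transcripts can place part of them in an exon. For Prdx1 and Prdx2 these bases reach into the annotated span of the gene, while for Nfe2l2 they lie outside it. The Prdx4 stretch lies inside the longest annotated span of that gene.
Prdx4 (chrX:155338521-155338710, - strand): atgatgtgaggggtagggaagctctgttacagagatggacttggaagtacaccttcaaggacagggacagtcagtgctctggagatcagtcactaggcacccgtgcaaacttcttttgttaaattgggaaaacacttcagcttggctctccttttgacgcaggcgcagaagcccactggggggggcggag
Nfe2l2 (chr2:75704724-75704913, - strand): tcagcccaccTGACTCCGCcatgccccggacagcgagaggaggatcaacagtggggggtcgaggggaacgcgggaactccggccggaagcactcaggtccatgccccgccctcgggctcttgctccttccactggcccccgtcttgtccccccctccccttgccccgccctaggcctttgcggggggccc
Prdx1 (chr4:116685349-116685538, + strand): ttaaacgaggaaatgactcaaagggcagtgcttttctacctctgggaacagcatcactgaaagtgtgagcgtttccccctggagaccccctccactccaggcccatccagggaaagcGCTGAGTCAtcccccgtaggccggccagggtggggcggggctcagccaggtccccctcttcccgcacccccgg
Prdx2 (chr8:84969372-84969561, + strand): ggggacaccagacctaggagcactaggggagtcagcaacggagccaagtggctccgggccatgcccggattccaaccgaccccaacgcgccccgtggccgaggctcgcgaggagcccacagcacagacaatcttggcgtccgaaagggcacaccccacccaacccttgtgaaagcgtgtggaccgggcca
RefSeq windows of 250 bases before the start were found for 9 of the 10 members, Prdx6 being the missing entry, with several start sites for Gpx4. The core was searched as TGACNNNGC on both strands, which can overlap a binding motif of AP-1 (TGACTCA). It occurred in the windows of Prdx1, Nfe2l2 and Sod1, and in none of those of the other 6 matched members. Of all 27025 genes with such windows, 11.5% held it in at least 1, as did 10.2% of the 32851 windows. Prdx1 had the match 133 bases before its start site and Nfe2l2 240 bases before. A match is a description of the sequence, and no match means only that these letters are not in this window.

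Libraries held 7.65 to 12.3 M fragments, as computed from the steps between low values, and 1 fragment in 1 kb of transcript was worth 0.0814 to 0.131 FPKM. The precision this gives varies with the gene: Prdx3, with 1 annotated transcript, rested on 16 to 801 fragments per library and Txn1 on 31 to 1500 fragments. The targeted gene Nlrp14 checked the labels: the KO mean was 1.46% of WT in GV oocytes, 5.02% in MII oocytes, 3.24% in zygotes and 24.9% in 2-cell embryos, with no overlap at any stage. Summed oocyte markers (Gdf9, Zp3, Oosp1 and others, all 10 detected at GV) marked the GV libraries as oocytes at 8869 FPKM or more. Summed 2-cell markers such as Zscan4c and Zscan4d stood at 1079 FPKM or more in every 2-cell library and at 189 FPKM or less in all others. Levels are FPKM, a share of each library per length, and RNA per embryo was not measured, so less of a transcript per embryo and more of the others cannot be told apart, nor can fewer expressing cells and less RNA per cell. Differences are log2(FPKM + 1), which understates low genes, tested with limma with a Benjamini-Hochberg adjustment over all tested genes and called under 0.05. Since no label says whether pools came from separate mice, the p-values reflect only how far these pools differed.

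Prdx1, a cytosolic peroxiredoxin, and its relative Prdx2 had the highest FPKM of the 10 members in all 8 groups, and their order changed between stages. Prdx1 lies on chromosome 4 (116685544 to 116700822, + strand) and Prdx2 on chromosome 8 (84969587 to 84974834, + strand), in GRCm38 as for all positions here. In WT, Prdx1 stood at 428, 419.5 and 412 FPKM in GV oocytes, 559, 520.2 and 433.5 in MII oocytes, 513, 426 and 298 in zygotes and 146, 169 and 199.8 in 2-cell embryos. Prdx2 stood at 241, 219 and 211 FPKM in GV oocytes, 60.1, 55.1 and 54.5 in MII oocytes, 243, 191 and 156 in zygotes and 323, 329.5 and 326 in 2-cell embryos. Prdx1 thus stayed high through the zygote and was lowest at the 2-cell stage, whereas Prdx2 was lowest at MII and highest at the 2-cell stage. Of the summed FPKM of the 5 peroxiredoxins, Prdx1 took 61.6% ± 0.869 (SD, n = 3) in WT GV oocytes, 89.3% ± 1.05 in MII oocytes, 66.5% ± 1.55 in zygotes and 25.8% ± 2.32 in 2-cell embryos. These shares rest on the levels of Prdx1 and Prdx2 without their copies.

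Prdx4, the peroxiredoxin of the endoplasmic reticulum (chromosome X, 155323918 to 155340754, - strand), was at most 1.54 FPKM in every WT library before the 2-cell stage. WT libraries held 1.14 to 1.54 FPKM at GV, 0 to 0.252 at MII and 0.873, 0 and 0 at PN5, and then 111, 109 and 155 FPKM at the 2-cell stage. Prdx6, which has both peroxidase and phospholipase activity (chromosome 1, 161240112 to 161251219, - strand), stood at 2.67 to 3.63 FPKM at GV, 1.3 to 1.88 at MII, 0.921 to 3.56 at PN5 and 28.9, 35.9 and 23.3 in WT 2-cell embryos. Gpx4, a selenoprotein that reduces lipid hydroperoxides in membranes (chromosome 10, 80047166 to 80056439, + strand), was listed at 8.22 to 9.24 FPKM at GV, 0.145 to 0.289 at MII, 0.433 to 0.62 at PN5 and 15.3, 11.8 and 11.0 in 2-cell embryos. For all 3 genes, every WT 2-cell library lay above every other WT library.

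A second shape was shared by the mitochondrial peroxiredoxin Prdx3, the cytosolic superoxide dismutase Sod1 and the cytosolic thioredoxin Txn1, which were highest in GV oocytes. They lie on chromosomes 19 (60864051 to 60874556, - strand), 16 (90220754 to 90226329, + strand) and 4 (57943373 to 57956411, - strand). WT Prdx3 stood at 34.0, 34.5 and 34.3 FPKM at GV, 1.1 to 2.42 at MII, 2.91 to 12.5 at PN5 and 9.2 to 15.7 at the 2-cell stage. Sod1 was listed at 31.7 to 37.0 FPKM in WT GV oocytes, 1.51 to 2.07 at MII, 3.92 to 6.51 at PN5 and 4.52 to 6.88 in 2-cell embryos. Txn1 stood at 91.3 to 100 FPKM at GV, 23.4 to 27.7 at MII, 16.5 to 30.2 at PN5 and 26.9 to 43.0 in 2-cell embryos. Sod2, the mitochondrial superoxide dismutase (chromosome 17, 13006846 to 13040063, + strand), varied least of the 10, between 3.74 and 7.33 FPKM over all 24 libraries. Nfe2l2 (chromosome 2, 75675513 to 75704641, - strand) stood at 7.27, 7.91 and 10.2 FPKM at GV, 14.5, 14.7 and 15.4 at MII, 7.99, 16.6 and 14.7 at PN5 and 37.8, 45.3 and 29.0 in WT 2-cell embryos.

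**Figure D2:**
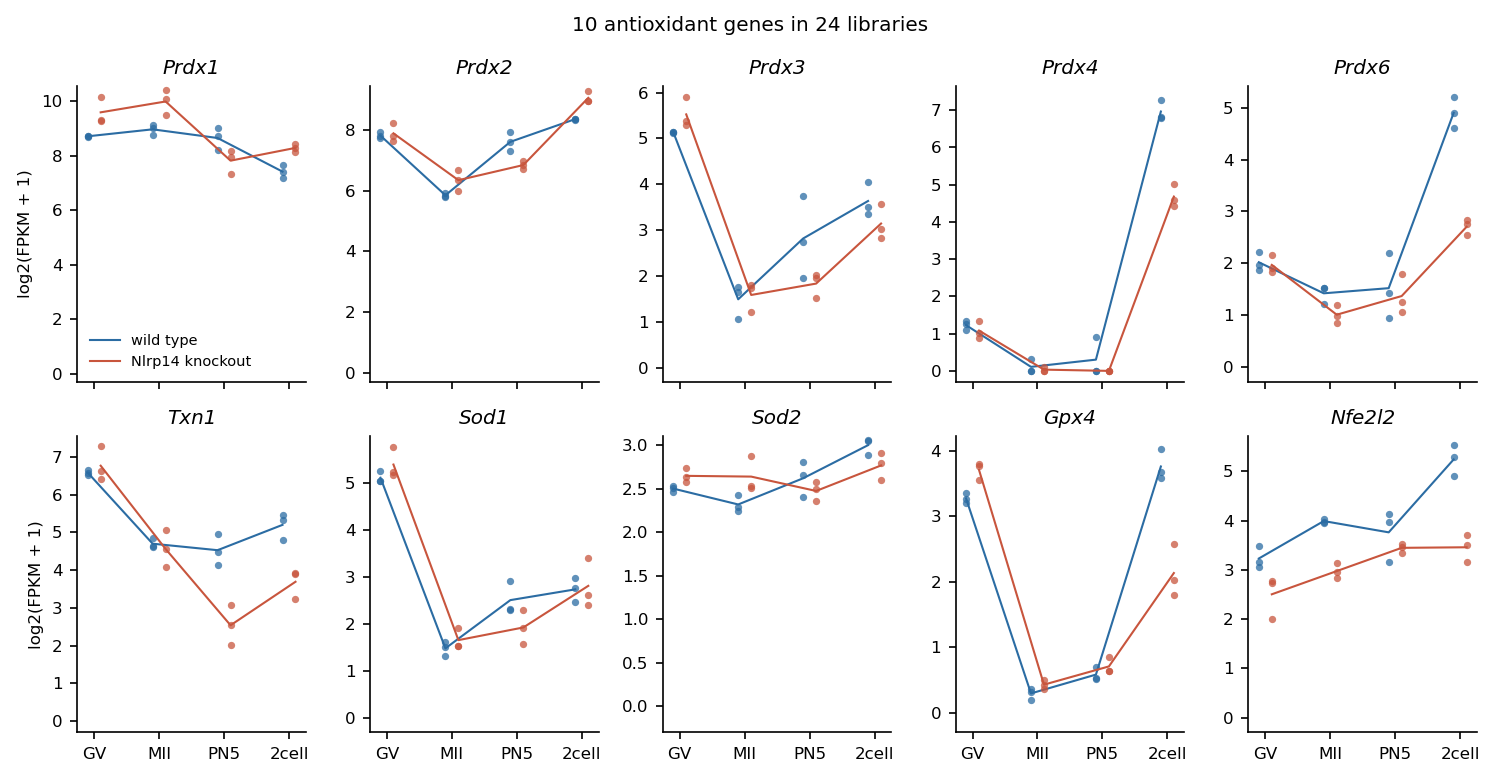
Level of each of the 10 genes as log2(FPKM + 1) (vertical axis, own range per panel) at GV, MII, PN5 and 2-cell, with 1 point per library and lines through the group means (WT blue, KO red, n = 3 per group). At the 2-cell stage the genotypes do not overlap for Prdx4, Prdx6, Gpx4 and Nfe2l2, where WT reaches 125, 29.4, 12.7 and 37.4 FPKM on average. They also do not overlap for Txn1, lower in KO, or for Prdx1 and Prdx2, higher in KO.

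Most members fell during normal maturation. From WT GV to MII, 7 of the 10 fell, against 52.8% of all tested genes, and 2 rose, against 31.1%. Of those that fell, Prdx4 and Gpx4 entered the test only through their GV libraries, as no WT MII library reached 1 FPKM. Their place in the count thus rests partly on the filter, though both falls were also called with no filter. The median over the 10 was -1.50 on the log2 scale, beside -0.50 over all tested genes. Sod1 fell from 33.6 ± 2.96 to 1.81 ± 0.283 FPKM (SD, n = 3; log2 -3.62, SE 0.12, limma adjusted p = 6.8e-08). Prdx3 fell from 34.2 ± 0.267 to 1.89 ± 0.7 FPKM (log2 -3.64, SE 0.18, limma adjusted p = 5.7e-07). Gpx4 (log2 -2.98), Prdx2 (-1.96), Txn1 (-1.88), Prdx4 (-1.12) and Prdx6 (-0.60) also fell (limma adjusted p at most 0.0044), and the fall of Prdx4 was lost when the trend with gene length was removed (log2 -0.20, limma adjusted p = 0.18). Sizes in this step depended on the setting: with that trend removed Txn1 fell by 0.68, Prdx6 by 0.37 and Gpx4 by 1.94, and with its copies added Gpx4 fell by 5.12. With a pseudocount of 0.1 Prdx4 fell by 3.24 and Gpx4 by 4.76, and in TPM Prdx4 fell by 1.90. Nfe2l2 rose from 8.45 ± 1.53 to 14.9 ± 0.436 FPKM (log2 0.76, SE 0.13, limma adjusted p = 0.00063; 1.17 with the length trend removed). Prdx1 rose by only 0.26 (SE 0.10, limma adjusted p = 0.035), and leaving out any single library other than MII replicate 3 ended that call (adjusted p 0.063 to 0.1), as did median-ratio rescaling (0.069) and the fit of all 24 libraries (0.45), while the rise was 0.55 in TPM and 0.86 with the length trend removed. Sod2 did not pass (log2 -0.18, limma adjusted p = 0.12), although its ranges did not overlap, and fell with the length trend removed (-0.45, adjusted p = 0.0024).

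After fertilisation, 2 of the 8 members tested rose from WT MII to PN5, against 9.80% of all tested genes, and none fell, against 4.44%. Prdx2 rose from 56.6 ± 3.05 to 197 ± 43.7 FPKM (log2 1.76, SE 0.20, limma adjusted p = 0.0026). Sod1 rose from 1.81 ± 0.283 to 4.81 ± 1.47 FPKM (log2 1.02, SE 0.24, limma adjusted p = 0.027), a call that ended without any 1 of the MII libraries or PN5 replicate 2 (adjusted p 0.093 to 0.13), and in TPM (0.14). Prdx3 passed without WT PN5 replicate 3 (log2 1.75, limma adjusted p = 0.017), the lowest of the 3 zygote libraries, and missed the threshold with it (1.32, adjusted p = 0.09). The WT zygote libraries were uneven: replicate 1 was highest and replicate 3 lowest for Prdx1, Prdx2, Prdx3 and Txn1. In those 3 libraries the slope of log2 level on log2 gene length ran from -0.17 to 0.02, against 0.06 to 0.09 in the KO zygotes. With this trend removed, the difference was 1.13 for Sod1 (adjusted p = 0.021) and 1.08 for Prdx3 (0.14). Gpx4, not tested alone in this step, stood with its copies added at 1.66 to 2.11 FPKM at MII and 3.56 to 6.93 at PN5. Its copy Gpx4-ps2 rose (log2 1.03, limma adjusted p = 0.035).

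Between PN5 and the 2-cell embryo, 5 of the 10 rose in WT, against 48.0% of all tested genes, and 1 fell, against 14.8%, which is close to the shares over all genes. Of those that rose, Prdx4 and Gpx4 entered the test only through their 2-cell libraries, as no WT zygote library reached 1 FPKM. Their place in the count thus rests partly on the filter, though both rises were also called with no filter. The largest rise was that of Prdx4, from 0.291 ± 0.504 to 125 ± 25.5 FPKM (log2 6.66, SE 0.32, limma adjusted p = 1.7e-06). Prdx6 rose from 2.05 ± 1.36 to 29.4 ± 6.31 FPKM (log2 3.39, SE 0.36, limma adjusted p = 6.3e-05). Gpx4 rose from 0.5 ± 0.104 to 12.7 ± 2.33 FPKM (log2 3.18, SE 0.24, limma adjusted p = 1.2e-05), and by 4.58 with its copies added. Nfe2l2 rose by 1.48 (SE 0.32, limma adjusted p = 0.0035) and by 0.82 with the length trend removed, and missed the threshold in TPM (1.19, adjusted p = 0.051). Prdx2 rose by 0.75 (SE 0.23, limma adjusted p = 0.02), and that rise shrank to 0.01 (adjusted p = 0.97) with the length trend removed. It also missed the threshold without PN5 replicate 2 or any 1 of the 2-cell libraries (adjusted p 0.068 to 0.084), with median-ratio rescaling (0.11) and in TPM (0.08). Prdx3 (log2 0.82, limma adjusted p = 0.14) and Txn1 (0.67, 0.081) did not pass, but did without PN5 replicate 1 (1.28, 0.0091, and 0.89, 0.021). Prdx1 fell from 412 ± 108 to 172 ± 26.9 FPKM (log2 -1.23, SE 0.27, limma adjusted p = 0.0035; -1.97 with the length trend removed).

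In KO GV oocytes 0 of the 10 members passed the test, against 0.0430% of all tested genes, and 3 had an unadjusted limma p under 0.05, against 11.8% of all tested genes. Prdx1 stood at 639, 627 and 1155 FPKM in KO against 412 to 428 in WT, which did not overlap (log2 0.88, SE 0.25, limma adjusted p = 0.24). Without KO GV replicate 3, which held the 1155, the difference was 0.59 and passed (adjusted p = 0.0094), in a fit that called 1026 genes in all, against 5 with that library. Gpx4 stood at 12.7, 10.8 and 12.9 FPKM against 8.22 to 9.24 (log2 0.43, limma adjusted p = 0.35), and Nfe2l2 at 5.63, 5.85 and 3.01 FPKM against 7.27 to 10.2 (log2 -0.73, limma adjusted p = 0.33). Replicate 3 was the KO library with the highest Prdx1, Prdx2, Prdx3, Txn1, Sod1 and Gpx4 and the lowest Nfe2l2. Its slope on gene length was -0.13, the lowest of the 6 GV libraries, and with the length trend removed the difference was 0.96 for Prdx1, 0.46 for Gpx4 and -0.62 for Nfe2l2 (limma adjusted p 0.21 to 0.28). Summed oocyte markers ran from 8869 to 9358 FPKM in WT and from 10383 to 11635 in KO GV oocytes, without overlap although 0 of the 10 markers was called, and their part in the result was not tested.

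At MII, Nfe2l2 was the 1 member of 8 tested that was lower in KO, against 1.96% of all tested genes. The 171 lower genes behind that share were 3 without WT MII replicate 1 and 2328 without KO MII replicate 1. Nfe2l2 stood at 14.5, 14.7 and 15.4 FPKM in WT and at 6.74, 7.74 and 6.17 FPKM in KO oocytes. The groups lay far apart beside their spread (log2 -1.02, SE 0.15, limma adjusted p = 0.022). The call ended without any 1 of the WT libraries or KO replicate 3 (adjusted p 0.094 to 0.17), and with the libraries rescaled by their median ratios (-0.86, adjusted p = 0.0503) or the length trend removed (-0.77, 0.057), while the log2 difference stayed between -1.25 and -0.77 over all settings tried. Prdx1 was listed at 719, 1353 and 1089 FPKM in KO against 433.5 to 559 in WT (log2 1.02, SE 0.23, limma adjusted p = 0.058), and passed without KO MII replicate 1 (1.27, adjusted p = 0.0033), where 3083 genes were called in all, against 199 with it. Prdx2 stood at 102, 80.7 and 62.7 FPKM in KO, all above the 54.5 to 60.1 of WT (log2 0.50, limma adjusted p = 0.14). Prdx6 (log2 -0.41, limma adjusted p = 0.16) lay below all WT libraries and Sod2 (0.32, 0.24) above them, without passing. Summed granulosa and cumulus markers, of which 3 of 20 reached 1 FPKM in WT and 5 of 20 in KO, stood at 218 to 235 FPKM in KO MII oocytes and 181 to 188 in WT. Serpine2 was the largest of them, at means of 202 FPKM in KO and 163 in WT. Summed oocyte markers ran from 7852 to 9135 FPKM in KO and from 6659 to 7365 in WT, also without overlap. The markers were split: Oosp1 was higher in KO, at means of 4532 FPKM against 2525 in WT, as were Ooep and Figla. Means of Gdf9 (3024.5 FPKM in KO, 3470 in WT), Bmp15, Zp1, Zp2, Zp3, Nobox and Kit were lower in KO. Of the 9 tested, 0 were called higher, and 1 was called lower, against 1.96% of all tested genes. The part of both lists in the result was not tested.

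In zygotes Txn1 was the 1 member of 8 tested that was lower in KO, against 5.53% of all tested genes. WT zygotes held 30.2, 21.5 and 16.5 FPKM and KO zygotes 4.84, 7.36 and 3.03. Every KO library lay below every WT library (log2 -1.99, SE 0.33, limma adjusted p = 0.035). The call ended without WT PN5 replicate 2 or any 1 of the KO zygote libraries (adjusted p 0.096 to 0.18), and under median-ratio rescaling, TPM and length trend removal (0.056 to 0.091), with differences between -2.25 and -1.59. Prdx1, at 244.5, 289 and 162 FPKM in KO, Prdx2, at 104.5, 113 and 124, and Sod1, at 2.77, 3.92 and 1.97, lay below all WT libraries without passing. The log2 differences were -0.83 for Prdx1 (limma adjusted p = 0.1), -0.76 for Prdx2 (0.07) and -0.58 for Sod1 (0.2). Without WT PN5 replicate 3, Prdx1 (-1.05), Prdx2 (-0.92) and Prdx3 (-1.41) passed beside Txn1. The number of all genes called at PN5, 578, was itself unsteady, at 1 to 2967 without single libraries. None of the 8 had a positive difference, the median being -0.67 beside 0.01 over all tested genes. The slope on gene length ran from -0.17 to 0.02 in WT and from 0.06 to 0.09 in KO zygotes. With the length trend removed, 34 genes were called in all, and the part of this trend in the median of the members was not tested. Summed 2-cell markers ran from 59.9 to 104 FPKM in WT and from 15.9 to 41.2 in KO zygotes, without overlap (6 of 10 reached 1 FPKM in WT and 2 of 10 in KO), while oocyte markers overlapped (4361 to 6834 and 4326 to 5334 FPKM). The largest 2-cell markers here were Tcstv1, at means of 53.1 FPKM in WT and 17.1 in KO, and Tcstv3, at 20.9 and 8.32. WT GV oocytes already held both, at 95.2 and 50.3 FPKM. The part of these markers in the result was not tested.

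The 2-cell stage held most of the differences between genotypes. In KO 2-cell embryos 5 of the 10 members were lower, against 40.3% of all tested genes, and 2 were higher, against 14.0%. With 10 members, these counts lie near the shares over all genes, so they describe the members and set them apart from nothing. Prdx4 stood at 111, 109 and 155 FPKM in WT and at 22.9, 20.6 and 31.5 in KO embryos, a mean of 20.0% of WT (log2 -2.28, SE 0.23, limma adjusted p = 0.0003). Prdx6 was listed at 28.9, 35.9 and 23.3 FPKM against 5.71, 6.1 and 4.8 (log2 -2.20, SE 0.23, limma adjusted p = 0.00031). Nfe2l2 reached 37.8, 45.3 and 29.0 FPKM in WT but 10.4, 7.98 and 11.98 FPKM in KO (log2 -1.78, SE 0.24, limma adjusted p = 0.00072). For each of these genes the lowest WT embryo pool was above the highest KO pool.

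Gpx4 and Txn1 were lower as well. Gpx4 stood at 15.3, 11.8 and 11.0 FPKM in WT against 4.96, 2.47 and 3.08 in KO 2-cell embryos (log2 -1.63, SE 0.27, limma adjusted p = 0.0016). Its copy Gpx4-ps2 stood at 140, 121 and 107 FPKM against 37.8, 24.6 and 29.9, and with copies added the difference was -1.96 (limma adjusted p = 0.00041). Txn1 held 39.5, 26.9 and 43.0 FPKM in WT and 14.2, 14.0 and 8.45 in KO embryos (log2 -1.51, SE 0.27, limma adjusted p = 0.0023). Neither gene overlapped between genotypes.

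Prdx1 and Prdx2 went the other way. Prdx1 stood at 146, 169 and 199.8 FPKM in WT and at 310, 348 and 283 in KO 2-cell embryos (log2 0.87, SE 0.19, limma adjusted p = 0.0048). Prdx2 stood at 323, 329.5 and 326 FPKM against 616, 488 and 494.5 (log2 0.70, SE 0.17, limma adjusted p = 0.0079). With copies added, the differences were 0.88 and 0.70. Of the 5 peroxiredoxins, Prdx4 made up 18.7% ± 2.61 (SD, n = 3) of the summed FPKM in WT and 2.86% ± 0.846 in KO embryos, while Prdx1 made up 25.8% ± 2.32 and 35.5% ± 3.91, and Prdx2 49.2% ± 3.11 and 60.1% ± 4.1. Prdx3 (log2 -0.49, limma adjusted p = 0.17), Sod1 (0.07, adjusted p = 0.85) and Sod2 (-0.23, adjusted p = 0.38) did not pass and overlapped between genotypes.

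All 7 calls at the 2-cell stage were kept in the settings and left-out libraries tried. Of all tested genes, 1936 were higher and 5577 lower, against 2846 and 4288 after median-ratio rescaling and 3477 and 3571 with the length trend removed. The median of all tested genes was -0.44 in this comparison, and it was -0.17 after median-ratio rescaling, -0.52 in TPM and -0.00085 with the length trend removed. Over these settings Prdx1 stayed between 0.76 and 1.40, Prdx2 between 0.59 and 1.23, and Prdx4 between -2.45 and -1.84. Other markers moved with genotype at this stage. Summed oocyte markers (all 10 reaching 1 FPKM in both) ran from 1150 to 1590 FPKM in WT and from 3769 to 4534 in KO embryos. Summed 2-cell markers, of which 9 of 10 reached 1 FPKM, ran from 1079 to 1559 FPKM in WT and from 1876 to 2871 in KO. Red cell and blood markers, of which 4 of 10 reached 1 FPKM, summed to 73.2 to 134 FPKM in WT and 18.3 to 29.1 in KO. Of these, Hba-a1 and Hba-a2 were detected, while Hbb-bs and Hbb-bt were listed at 0 in all 2-cell libraries. Oviduct markers, of which 2 of 5 reached 1 FPKM, summed to 55.7 to 107 FPKM in WT and 13.4 to 17.9 in KO, with Foxj1 and Pax8 listed at 0. Epcam made up nearly all of that sum, at means of 76.9 FPKM in WT and 15.0 in KO. Krt8 stood at means of 1.24 and 0.712, and Ovgp1 at 0.408 and 0.292. Sperm and spermatid markers summed to 16.1 to 33.9 FPKM in WT and 11.0 to 22.2 in KO, and granulosa and cumulus markers to 36.4 to 50.5 and 24.5 to 35.6. Within the granulosa and cumulus list, mean Tnfaip6 (25.2 FPKM in WT, 4.56 in KO) and Nr5a2 (8.77, 2.32) were lower in KO. Mean Serpine2 (7.43, 16.3) and Cyp19a1 (0.759, 2.71) were higher. Of its 5 tested markers, 2 were called lower and 2 higher, against 40.3 and 14.0% of all tested genes. The part of these markers in the result was not tested.

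**Figure D3:**
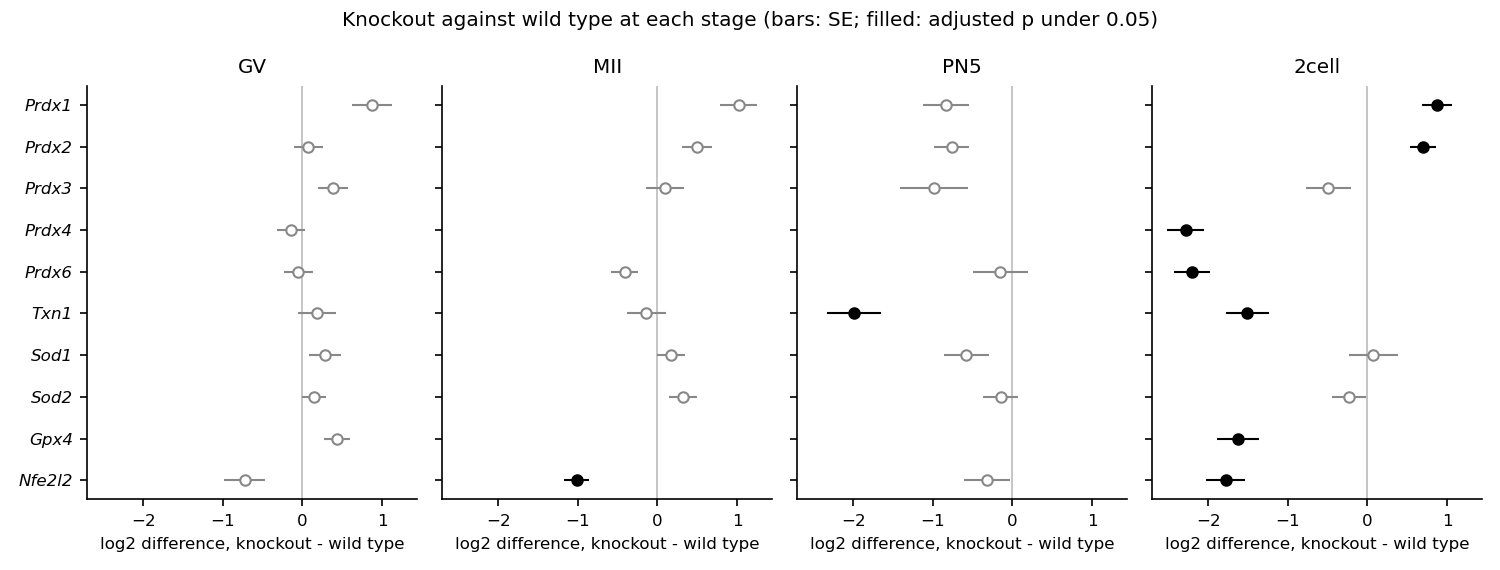
Log2 difference between KO and WT (horizontal axis, log2(FPKM + 1), KO minus WT) of each gene by stage, with the SE of the limma fit as bars and filled points for adjusted p under 0.05 (3 libraries per group). Filled points number 0 at GV, 1 at MII (Nfe2l2), 1 at PN5 (Txn1) and 7 at the 2-cell stage, and genes without a point were not tested.

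Whether a step itself differed between genotypes was tested as an interaction over 12 libraries. From GV to MII, 0 of 10 members passed, against 0.120% of all tested genes, and 0 had an unadjusted limma p under 0.05, against 6.64%. From MII to PN5, 3 of 8 members had a lower change in KO, against 4.59%. Prdx1 went from a mean of 1054 to 232 FPKM in KO and from 504 to 412 in WT (interaction log2 -1.85, SE 0.40, limma adjusted p = 0.045). Prdx2 went from 81.7 to 114 FPKM in KO and from 56.6 to 197 in WT (-1.26, SE 0.29, limma adjusted p = 0.045). Txn1 went from 23.6 to 5.08 FPKM in KO and from 25.1 to 22.7 in WT (-1.85, SE 0.44, limma adjusted p = 0.045). All 3 calls ended without any single library other than KO MII replicate 1 or WT PN5 replicate 3, and also in TPM (adjusted p 0.089 to 0.091) and with the length trend removed (0.053). Without WT PN5 replicate 3, Prdx3 passed as well (-1.50, adjusted p = 0.02). The 759 genes called in all in this interaction were 0 to 4130 without single libraries.

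From PN5 to the 2-cell embryo, 2 of the 10 members changed more upward in KO, against 13.8% of all tested genes, and 4 more downward, against 31.9%. Prdx1 went from 232 ± 64.1 to 314 ± 32.8 FPKM in KO, whereas it fell in WT (interaction log2 1.70, SE 0.35, limma adjusted p = 0.0022). Prdx2 went from 114 ± 9.82 to 533 ± 71.8 FPKM in KO (interaction 1.46, SE 0.26, limma adjusted p = 0.0009). Nfe2l2 stood at 9.91 ± 0.656 FPKM in KO zygotes and 10.1 ± 2.01 in KO 2-cell embryos, against the WT rise (interaction -1.47, SE 0.38, limma adjusted p = 0.0076; -0.92 with the length trend removed). Prdx6 (interaction -2.05, limma adjusted p = 0.0027), Prdx4 (-1.98, 0.0015) and Gpx4 (-1.75, 0.0011) gained less in KO. Prdx4 and Gpx4 entered this test only through their 2-cell libraries, as no zygote library of either genotype reached 1 FPKM. Their place in the count thus rests partly on the filter, and their differences at the 2-cell stage alone were -2.28 and -1.63. Prdx4 was listed at 0 in all 3 KO zygote libraries and at 20.6 to 31.5 FPKM in KO 2-cell embryos, and with a pseudocount of 0.1 its interaction missed the threshold (-1.23, adjusted p = 0.34). Txn1 did not pass (0.48, limma adjusted p = 0.4), its KO mean going from 5.08 to 12.2 FPKM. Sod1 (0.65, adjusted p = 0.23) passed with the length trend removed (1.22, adjusted p = 0.04).

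**Figure D4:**
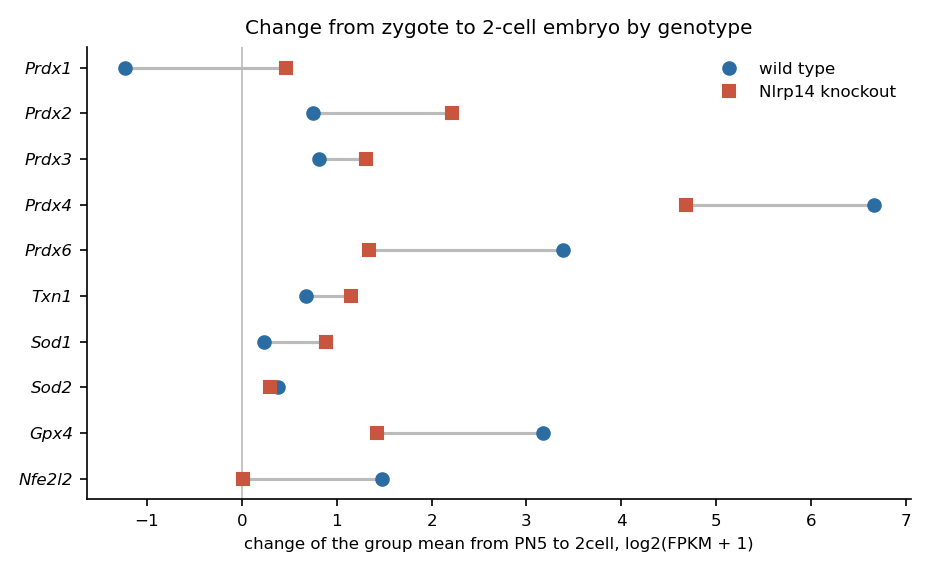
Change of the group mean from PN5 to the 2-cell stage on the log2(FPKM + 1) scale (horizontal axis) for each gene in WT (blue circles) and KO (red squares), 3 libraries per group. Nfe2l2 changes by 1.48 in WT and 0.01 in KO, and Prdx1 by -1.23 and 0.47.

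Over all 8 groups, the order of mean levels differed between members. Prdx4 ran from WT 2-cell (125 FPKM) through KO 2-cell (25.0) to WT GV (1.35), each clear of the next, and the remaining groups overlapped their neighbours. Prdx6 had the same first 3 groups, at 29.4, 5.54 and 3.07 FPKM, also clear of each other. Nfe2l2 was highest in WT 2-cell embryos (37.4 FPKM), clear of WT MII (14.9), and from there down to KO MII (6.88) neighbours overlapped, before KO GV (4.83) stood apart. Prdx1 was highest in KO MII (1054 FPKM) and KO GV (807), which overlapped, both clear of WT MII (504). For Prdx2, KO 2-cell (533 FPKM) and WT 2-cell (326) led, while Txn1 was highest in KO GV (112) and WT GV (95.1), which overlapped, and lowest in KO PN5 (5.08). Sod2 neighbours overlapped throughout.

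Likeness of pattern was described by Pearson's r of log2(FPKM + 1) over the 24 libraries, which share stages and genotypes and so are not independent. Among members, Prdx3 and Sod1 had r = 0.95, Prdx4 and Prdx6 r = 0.92, and Prdx1 and Nfe2l2 r = -0.72. Outside the members, the most alike of 2793 protein-coding genes with a mean of at least 10 FPKM was Mak16 for Prdx4 (r = 0.99), Rps9 for Gpx4 (0.99), Cisd1 for Sod1 (0.99), Atp5e for Prdx3 (0.98) and Sem1 for Txn1 (0.98). It was Cript for Prdx2 (0.97), Ruvbl1 for Prdx6 (0.96), Chmp1b for Nfe2l2 (0.93), Vamp7 for Prdx1 (0.92) and Polr2f for Sod2 (0.80).

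The rest of the antioxidant system was followed in 67 other genes in 5 lists. In KO against WT, 0 of 44 tested passed at GV (limma, 2 with an unadjusted p under 0.05, against 11.8% of all tested genes). At MII 1 of 34 was lower and at PN5 2 of 39, against 1.96 and 5.53% of all tested genes, and none was higher. Gstm5, a glutathione transferase, stood at 77.3, 96.5 and 68.0 FPKM in WT MII oocytes and at 21.9, 34.5 and 23.2 in KO (log2 -1.58, limma adjusted p = 0.017). It stood at 67.4, 67.4 and 55.1 against 17.3, 20.6 and 13.8 FPKM in zygotes (log2 -1.83, limma adjusted p = 0.029). Txndc17, a thioredoxin-like protein, was lower in KO zygotes beside Txn1, at 17.4 against 52.5 FPKM (log2 -1.53, limma adjusted p = 0.035).

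At the 2-cell stage 25 of the 53 other antioxidant genes tested were lower in KO, against 40.3% of all tested genes, and 7 higher, against 14.0%, which is near those shares. Their median was -0.65, beside -0.44 over all tested genes, and the same shares are the background of each list below. Of the thioredoxin and peroxiredoxin list, 4 of 10 were lower and 0 higher: Prdx5, Txnrd1, Sesn1 and Sesn2. The glutathione and glutaredoxin list had 7 of 18 lower and 4 higher, the list of superoxide, catalase and metal handling 5 of 6 lower, that of NRF2 regulation and targets 6 of 11 lower and 2 higher, and that of methionine sulfoxide reductases and selenoprotein synthesis 3 of 8 lower and 1 higher. Some genes entered this test through 1 genotype only, so these counts rest partly on the filter. Txnrd1, Gss, Glrx2 and Mafk reached 1 FPKM in no KO 2-cell library, and Gstp1 in no WT 2-cell library. Mgst3, a microsomal glutathione transferase, stood at 58.7, 77.6 and 94.6 FPKM in WT and at 362, 695 and 684 in KO embryos (log2 2.86, limma adjusted p = 0.00031). G6pdx, which supplies reduced nicotinamide cofactor through the pentose phosphate pathway, was higher as well, at 124 against 29.2 FPKM (log2 2.09), as was the glutaredoxin gene Glrx, at 14.0 against 1.83 (2.24). The lower genes with the smallest adjusted p were the metallothionein gene Mt2, at 85.5 FPKM in KO against 358 in WT (log2 -2.07), Taldo1 of the pentose phosphate pathway, at 9.72 against 52.5 (-2.30), and Glrx3, at 1.4 against 9.04 (-2.06).

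**Figure D5:**
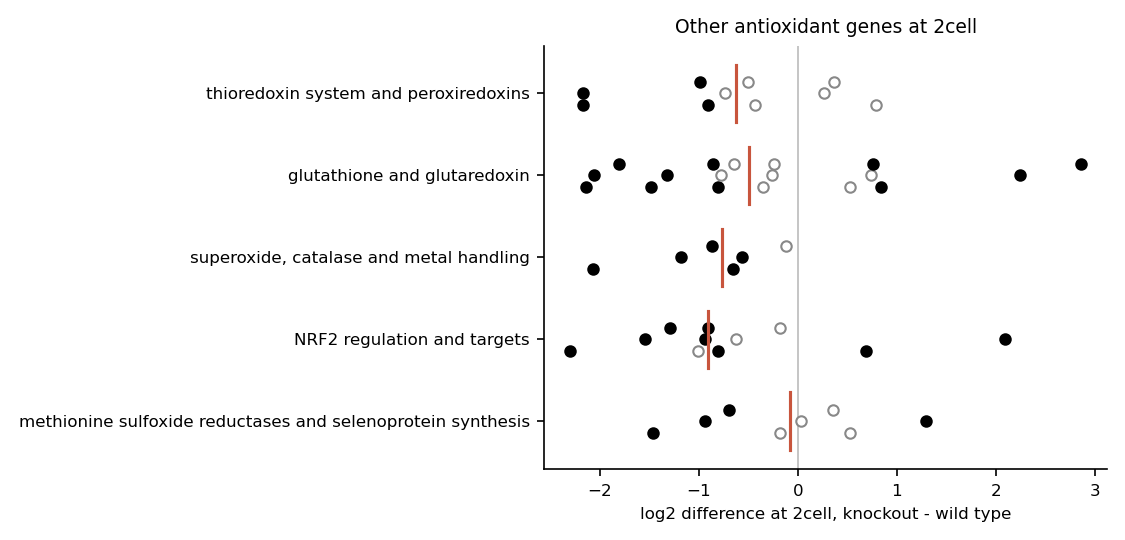
Log2 difference between KO and WT 2-cell embryos (horizontal axis) of the 53 other antioxidant genes tested, by list (rows, points staggered for legibility), with filled points for adjusted p under 0.05 and a red line at each list's median. The medians are -0.62, -0.49, -0.76, -0.91 and -0.07 from the top row to the bottom row.

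In WT, 25 of 43 of these genes fell from GV to MII, against 52.8% of all tested genes, and 11 rose, against 31.1%. The falls included Gsta4 (151 to 3.85 FPKM), Glrx5 (80.6 to 3.58) and Selenow (401 to 50.4), while Msrb3 (10.6 to 44.5), Mgst3 (260.2 to 547) and Mafg (0.725 to 3.38) rose. Mafg entered this test only through its MII libraries, and others such as Glrx3 and Ccs only through their GV libraries. These counts thus rest partly on the filter. From MII to PN5, 6 of 37 rose (9.80% of all tested genes), among them Selenow, Fth1 and Gsta4, and 2 fell (4.44%), Taldo1 and Slc7a11. From PN5 to the 2-cell stage 29 of 53 rose and 7 fell, against 48.0 and 14.8% of all tested genes. Gsto1 rose from 0.189 to 14.1 FPKM and Ftl1, the ferritin light chain, from 7.08 to 85.5, and Gpx7 was listed at 0 in WT zygotes and at a mean of 11.3 in 2-cell embryos. Gsto1, Gpx7 and others such as Sesn1 and Glrx3 entered this test only through their 2-cell libraries, as no WT zygote library reached 1 FPKM. The count of rises thus rests partly on the filter. Mgst3 (851 to 77.0 FPKM), Slc7a11 (6.58 to 0.986) and Glrx (18.6 to 1.83) fell. The change differed between genotypes for 0 of 46 from GV to MII (limma, 3 with an unadjusted p under 0.05, against 6.64% of all tested genes). It differed for 2 upward and 3 downward of 39 from MII to PN5 (2.86 and 4.59% of all tested genes), and for 10 upward and 19 downward of 55 from PN5 to the 2-cell stage (13.8 and 31.9%). The upward interactions with the smallest adjusted p in this last step were Mgst3 (log2 3.34), Glrx (3.37) and Gstm5 (2.36), and the downward ones Taldo1 (-3.15), Glrx3 (-2.02) and Sesn1 (-2.02). Glrx3 and Sesn1 entered this interaction only through their 2-cell libraries, as no zygote library of either genotype reached 1 FPKM.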

How the data were processed

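Each library was made from 5 pooled oocytes or embryos, by SMART-Seq HT amplification of total RNA, per the labels. The authors deposited 1 table of FPKM per library (24 libraries, 55487 genes, of which 55227 matched a GENCODE M21 symbol). StringTie and build GRCm38 were used, per the submitters' processing notes; versions, aligner, annotation and the handling of fragments with several matches: not given in the sources used here. For genes with 1 transcript, 98.8 to 99.2% of low values were whole multiples of 1 fragment (tolerance 0.02), which gave the depth. No count test was run, since this was established for 1-transcript genes only.

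Groups came from the labels. Genes reaching 1 FPKM in 3 or more libraries of a fit were tested with limma 3.58.1 (R 4.3.3; trend and robust settings) on log2(FPKM + 1): KO against WT at 4 stages, 3 WT steps, and 3 interactions over 12 libraries, with a threshold of 0.05. Only the groups compared entered a fit. A gene below 1 FPKM in 1 group could enter through the other group alone. Settings tried were median-ratio rescaling, TPM (FPKM rescaled to the same sum in each library), removal of a length trend (lowess span 0.4), a pseudocount of 0.1, no filter, a mean of at least 5 FPKM, all 24 libraries in 1 fit, a replicate block and leaving out each library. Adding near-identical copies (BLAST 2.17.0, at least 95% identity over 300 bases) was chosen after seeing the data. The code was tested on simulated data. Python 3.11.15, pandas 2.3.3, numpy 2.4.6 and matplotlib 3.10.9 were used.

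The members and lists were chosen with earlier results of these data known. All 10 members and Nlrp14 entered every comparison in which they passed the filter. Nlrp14 is given only for KO against WT, and members that were not called are not all named in each comparison. Of the other 67 genes, up to 3 per direction with the smallest adjusted p and no overlap are named, and further genes named only in a count were chosen after their values were seen.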

Additional observations from a re-analysis of the deposited data

Results flagged for a closer look

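Each result here is a step whose change differed between genotypes by the interaction term of limma (KO change minus WT change, log2, 3 libraries per group). From MII to PN5 this held for Prdx1 (-1.85), Prdx2 (-1.26) and Txn1 (-1.85), each with a limma adjusted p of 0.045. From PN5 to the 2-cell stage it held for Prdx1 (1.70, limma adjusted p = 0.0022), Prdx2 (1.46, 0.0009), Prdx4 (-1.98, 0.0015), Prdx6 (-2.05, 0.0027), Gpx4 (-1.75, 0.0011) and Nfe2l2 (-1.47, 0.0076). Prdx1 and Prdx2 were negative in the first step and positive in the second, and both steps use the same PN5 libraries. Prdx4 and Gpx4 entered the second step only through their 2-cell libraries, since no PN5 library reached 1 FPKM for them.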

How the results depend on the processing

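Of 35 called gene results, 24 kept their call and direction in all alternatives that gave a value, and no called value changed sign; 40 uncalled values did. The 7 calls at the 2-cell stage were among those kept. At MII the 1 call became 0 with median-ratio rescaling, length trend removal, no filter and the replicate block, and 0 to 2 without single libraries. At PN5 the 1 call became 0 with median-ratio rescaling, TPM, length trend removal, no filter and the replicate block, 3 in the fit of all 24 libraries, and 0 to 4 without single libraries. At GV, 0 to 1 members passed without single libraries. From WT MII to PN5 the 2 calls became 1 in TPM, with no filter and with a mean of at least 5 FPKM, and 1 to 3 without single libraries. From WT PN5 to the 2-cell stage the 6 calls ran from 3 to 8 without single libraries, where leaving out a 2-cell library took Prdx4 and Gpx4 below the filter. The 3 interactions from MII to PN5 became 0 in TPM, with length trend removal, a pseudocount of 0.1, no filter and the replicate block, and 0 to 4 without single libraries. Unless stated in the report, the cause was not tested. Replicate numbers did not pair the samples: same-numbered libraries correlated at -0.386 at the lowest (WT PN5 with WT 2-cell). For WT MII with WT PN5 the values were 0.229, 0.047 and 0.230, with every sample closest to its own number, as a hint from the data. The replicate block at PN5 called 1 gene in all, against 578 without it. Depth limits Prdx4 (0 to 0.873 FPKM) and Gpx4 (0.145 to 0.813 FPKM) at MII and PN5, beside 0.0814 to 0.131 FPKM for 1 fragment in 1 kb. Their fragments were not computed, since both have several annotated transcripts. Gpx4 also depends on the unknown split of fragments with Gpx4-ps2.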
